A study of Mus musculus with 8 samples.

Results

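The 8 genes described here belong to cholesterol synthesis and its control in mouse liver: Srebf2, Hmgcs1, Sqle, Idi1, Fdft1, Lss, Cyp51 and Insig1. They were chosen by name, as the transcription factor SREBP2 and well-known targets of it, and make up 8 of the 55450 genes in the count matrix, of which 34289 had a UMI (unique molecular identifier, 1 per captured mRNA molecule) in a kept cell. The livers of 8 wild-type C57BL/6 mice were each turned into 1 library of single cells with the Chromium 3' kit of 10x Genomics. The 2 control mice had normal diet and plain drinking water. The 3 HFD+F+CCl4 mice had a high-fat diet, and the 3 WD+F+CCl4 mice a western diet, which by the methods of the study held more cholesterol than the high-fat diet. Both NASH groups also drank fructose solution and were injected into the peritoneum with CCl4 (carbon tetrachloride, a liver toxin that drives fibrosis), so neither diet was seen without these agents. Levels are CPM, the UMI counts of a gene in a cell class of a mouse, scaled so that all counts of that class come to the same total in each mouse, and each mouse counted as 1 replicate.

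A barcode was taken as a cell with over 500 genes detected and mitochondrial UMIs below 25%, a filter that 80474 of 88581 barcodes passed. They were clustered without the sterol genes, and the clusters were named from marker genes, so a name such as cDC-like stands for these markers only and may differ from the names of the study. In each named cluster of the clustering that gave the classes, at least 7 of 10 markers, or a larger share, were found in 10% or more of the cells. In a finer clustering, used below for description, the share was lower. It was 5 of 10 conventional dendritic cell markers in the Cd209a cluster, 6 of 10 in the Xcr1 cluster and 1 of 5 plasma cell markers in the Jchain cluster. The library of control mouse 2 stood apart in depth, with 6135827 UMIs in all and a median of 992.5 UMIs per kept cell, against 36699315 to 64855024 UMIs and medians from 2397 to 4278 in the other mice. Between 1.69% and 2.40% of the kept barcodes of a library also occurred in another library. A mouse entered a class with at least 20 cells. Hepatocyte-like cells could not be compared with control, since control mouse 1 gave 56 of them and control mouse 2 gave 2. WD+F+CCl4 mouse 1 is missing from the cholangiocyte-like class, with 2 cells, and from the endothelial-like class, with 9.

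Cells build cholesterol from acetyl-CoA through the mevalonate pathway, and the liver is a main site of this synthesis. SREBP2 waits in the membrane of the endoplasmic reticulum, bound to its escort SCAP, and when membrane cholesterol is low it travels to the Golgi, is cut by proteases and moves to the nucleus, where it switches on the enzymes of the pathway. When cholesterol is plentiful, INSIG proteins hold the complex back, so the mRNA of these genes is widely used as a readout of the sterol state of a cell.

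By role, Srebf2 (chr15:82147181-82205379, GRCm38, plus strand) encodes SREBP2 itself. Insig1 (chr5:28071363-28078662, plus strand) encodes the retention protein, which is also an SREBP target. Hmgcs1 (chr13:119690379-119708260, plus strand) makes HMG-CoA at the head of the pathway, and Idi1 (chr13:8885501-8892451, plus strand) interconverts the 2 isoprene building blocks. Fdft1 (chr14:63145150-63179578, minus strand) encodes squalene synthase, the first step committed to sterols. Sqle (chr15:59315077-59331192, plus strand) then adds oxygen to squalene, Lss (chr10:76531588-76557138, plus strand) closes the ring to lanosterol, and Cyp51 (chr5:4081145-4104746, minus strand) removes a methyl group from lanosterol. In the kept cells the genes had between 1892 UMIs (Lss) and 24131 UMIs (Srebf2) in all. Because a 3' count is not scaled to length or capture, levels are compared between cells and mice and not between genes.

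Promoters are shown because members of the pathway moved together in the counts described below. RefSeq promoter sequences (GRCm38.p6, 250 bases before to 50 after the start) were matched for 6 of the 8 genes, without Sqle and Fdft1. They were searched on both strands for the letters TCACNCCAC, a form of the sterol regulatory element to which SREBP binds, and for CCAAT, the box of NF-Y, a frequent partner of SREBP. TCACNCCAC occurred in 1 of the 6 promoters, that of Hmgcs1 at -137 from the RefSeq start, and in 408 of all 32851 promoters of the same length (1.242%). CCAAT occurred in 6 of 6, and in 12289 of the 32851 promoters (37.41%), so its presence is common. The 4 promoters with a match in the stretch before the start are printed 5′ to 3′ on the strand of the gene, with the matches in capitals (ATTGG is CCAAT on the other strand); they span chr13:119690101-119690350 for Hmgcs1, chr15:82147019-82147180 for Srebf2, chr10:76531355-76531587 for Lss and chr5:28071162-28071362 for Insig1.
Hmgcs1: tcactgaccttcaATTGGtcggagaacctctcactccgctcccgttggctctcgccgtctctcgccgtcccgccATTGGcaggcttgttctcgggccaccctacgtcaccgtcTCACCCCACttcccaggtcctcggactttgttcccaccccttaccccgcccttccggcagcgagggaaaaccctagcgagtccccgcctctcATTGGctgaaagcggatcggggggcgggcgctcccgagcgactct
Srebf2: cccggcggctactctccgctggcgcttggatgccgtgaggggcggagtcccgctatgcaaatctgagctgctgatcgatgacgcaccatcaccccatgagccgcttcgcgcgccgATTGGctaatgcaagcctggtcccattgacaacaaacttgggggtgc
Lss: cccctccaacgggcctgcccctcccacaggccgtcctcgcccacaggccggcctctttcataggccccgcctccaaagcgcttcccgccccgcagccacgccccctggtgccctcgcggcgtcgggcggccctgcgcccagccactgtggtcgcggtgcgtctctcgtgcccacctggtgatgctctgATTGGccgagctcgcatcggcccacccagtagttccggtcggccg
Insig1: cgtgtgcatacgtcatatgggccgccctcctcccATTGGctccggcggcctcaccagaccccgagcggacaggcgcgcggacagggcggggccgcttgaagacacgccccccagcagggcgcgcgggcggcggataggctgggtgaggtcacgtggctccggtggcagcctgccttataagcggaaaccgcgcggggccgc

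The stretch of Hmgcs1 held 3 CCAAT matches beside the sterol element, and those of Srebf2, Lss and Insig1 held 1 each. The matches of Idi1, at -45 and -14, and of Cyp51, at -29, lie outside the stretches written out for these genes, which end before the first base of the gene in the annotation. A match is a run of letters and no measured binding, since no binding data were part of these files.

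Across cell classes, the mean of the 3 group means was highest for 6 of the 8 genes in cholangiocyte-like cells, the lining of the bile ducts, a place that rested on the control mice for some of them. By this mean, Hmgcs1 stood at 245 CPM in cholangiocyte-like, 153 in hepatocyte-like and 121 in pDC-like cells (plasmacytoid dendritic cells, the main producers of type I interferon), and at 20.4 in granulocyte-like cells, the lowest class. Sqle ran from 123 CPM in cholangiocyte-like to 2.38 in granulocyte-like cells, and Fdft1 from 133 to 9.58 between the same classes. Idi1 was at 90.0 CPM in cholangiocyte-like, 73.9 in hepatocyte-like and 7.74 in endothelial-like cells. Within both NASH groups hepatocyte-like cells stood above cholangiocyte-like cells for Hmgcs1, Idi1 and Lss. Hmgcs1 averaged 239 CPM in hepatocyte-like against 122 in cholangiocyte-like cells with HFD+F+CCl4, and 76.8 against 50.7 with WD+F+CCl4. The control level of hepatocyte-like cells is that of 1 mouse.

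The regulators had another order. Insig1 was highest in hepatocyte-like cells, at 128 CPM, followed by cholangiocyte-like cells at 66.2. Srebf2 was at 160 CPM in pDC-like, 151 in cDC-like (conventional dendritic cells, which present antigen to T cells) and 128 in cholangiocyte-like cells, and lowest in hepatocyte-like cells, at 42.5. Its order differed by group, with cholangiocyte-like cells first in control (192 CPM), pDC-like cells with HFD+F+CCl4 (201) and cDC-like cells with WD+F+CCl4 (123). The order is a description, because the classes came from clustering the same cells. In all 64 pairs of neighbouring classes, 8 for each gene, the ranges over mice overlapped, so no neighbours stood apart from each other beyond the spread over mice, which here includes the difference between the groups.

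**Figure D1:**
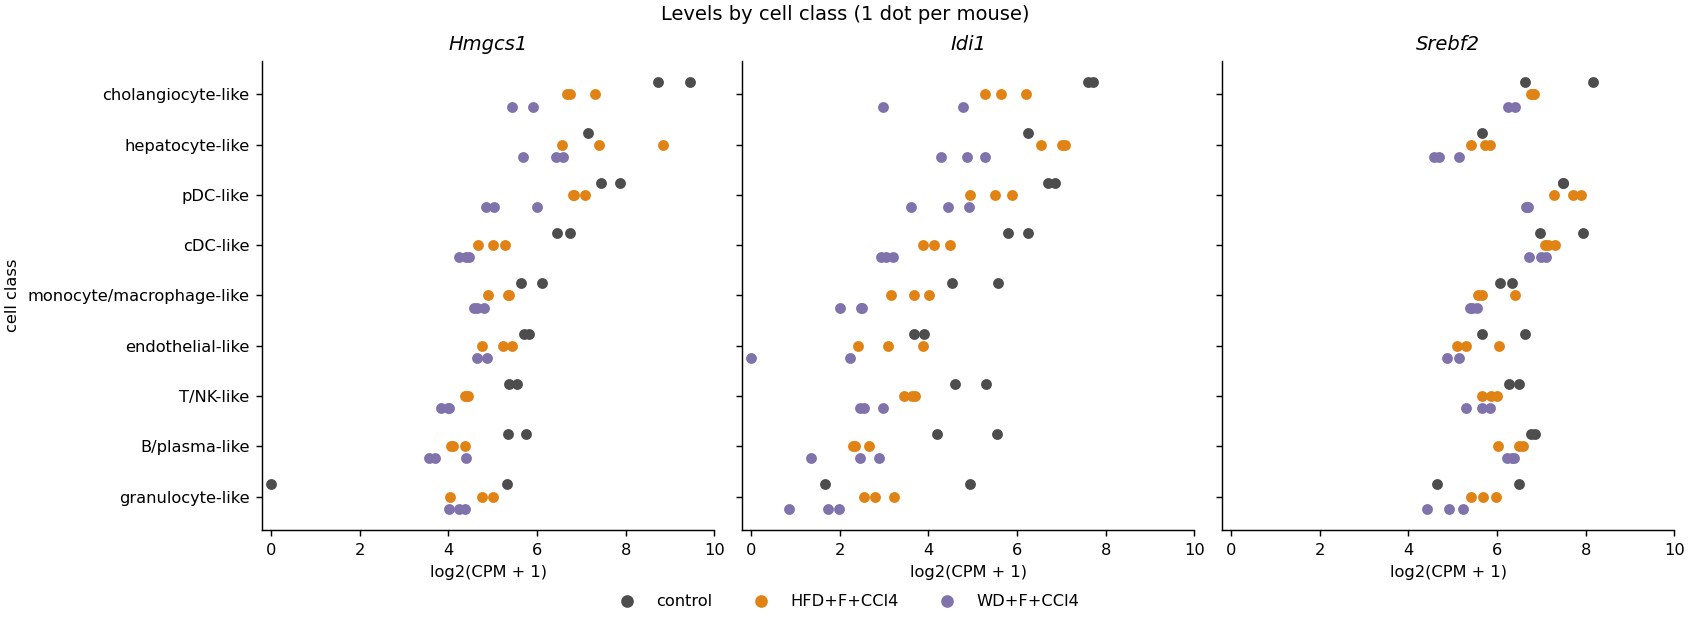
Levels of Hmgcs1, Idi1 and Srebf2 in 9 cell classes, as log2(CPM + 1) on the horizontal axis with 1 dot per mouse, colored by group (grey control, orange HFD+F+CCl4, purple WD+F+CCl4). Hmgcs1 and Idi1 reach their highest values in cholangiocyte-like cells of control mice, with the purple dots mostly at the low end, while the Srebf2 dots of the groups lie close together.

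The comparison of WD+F+CCl4 with control asked how the sterol genes stood in fibrotic NASH livers on the diet richer in cholesterol. Levels were lower in nearly every class: of 59 gene-by-class tests, 36 were called, all lower, at an adjusted p under 0.05 (edgeR's quasi-likelihood test on UMIs summed per mouse and class, with Benjamini-Hochberg adjustment over all genes of the class). Over all genes and classes tested, 3.8% were called lower. The fitted log2 fold change was negative in 57 of 59, with a median of -1.74, beside a median of 0.04 over all genes. In 52 of 59, each WD+F+CCl4 mouse lay below both control mice, against 24.5% of all genes. With 2 control mice, the counts lean on each of them: without control mouse 1 the calls were 15 of 61, all lower, and without control mouse 2 they were 25 of 61.

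Not every gene could be tested everywhere. The filter on low counts removed Sqle, Idi1 and Lss from endothelial-like cells and Sqle and Lss from granulocyte-like cells, so 59 of 64 possible tests were made, and a gene that passes the filter through its control level alone is bound to look lower in the NASH mice. The 36 calls fell in pDC-like (8 of 8), cDC-like (7 of 8), cholangiocyte-like (7 of 8), T/NK-like (5 of 8), B/plasma-like (4 of 8), monocyte/macrophage-like (4 of 8) and granulocyte-like cells (1 of 6). Class by class, the shares of all genes called lower were 4.56% in pDC-like, 7.46% in cDC-like, 0.494% in cholangiocyte-like, 5.15% in T/NK-like, 4.84% in B/plasma-like, 3.88% in monocyte/macrophage-like and 2.29% in granulocyte-like cells.

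In cDC-like cells, Idi1 stood at 54.4 and 75.2 CPM in control mice 1 and 2, at 16.6, 13.8 and 21.3 CPM in the HFD+F+CCl4 mice and at 6.67, 8.17 and 7.29 CPM in the WD+F+CCl4 mice. Hmgcs1 stood at 86.5 and 106 CPM in control, at 31.1, 24.5 and 37.6 CPM with HFD+F+CCl4 and at 18.01, 21.2 and 20.1 CPM with WD+F+CCl4. For both genes the 3 groups did not overlap and followed the order control, HFD+F+CCl4, WD+F+CCl4. Against control, the WD+F+CCl4 mice were lower in Idi1 by a log2 fold change of -2.996 (SE 0.25, adjusted p = 4.47e-05, edgeR) and in Hmgcs1 by -2.18 (SE 0.21, adjusted p = 0.000121, edgeR). Sqle, which catalyses a rate-limiting oxidation, stood at 29.7 and 40.5 CPM in control, at 12.1, 6.13 and 14.1 CPM with HFD+F+CCl4 and at 2.45, 4.39 and 5.56 CPM with WD+F+CCl4. Its groups again did not overlap, and its log2 fold change was -2.98 (SE 0.41, adjusted p = 0.0011, edgeR).

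The later enzymes and the retention protein were also highest in control mice among cDC-like cells. Cyp51 was at 57.7 and 48.2 CPM in control, at 24.2, 21.4 and 33.7 CPM with HFD+F+CCl4 and at 12.2, 17.9 and 16.7 CPM with WD+F+CCl4, and Fdft1 at 22.4 and 13.5, at 9.85, 8.69 and 10.7 and at 7.34, 8.02 and 8.33 CPM in the same order. Insig1 was at 39.9 and 40.5 CPM in control, at 13.2, 8.91 and 12.5 CPM with HFD+F+CCl4 and at 8.67, 8.02 and 9.72 CPM with WD+F+CCl4, where the 2 NASH groups overlapped. Lss was at 12.8 and 15.4 CPM in control, at 4.92, 3.23 and 4.62 CPM with HFD+F+CCl4 and at 1.56, 3.03 and 4.51 CPM with WD+F+CCl4, so its NASH groups overlapped too. Against control, these 4 genes were lower in WD+F+CCl4 by log2 fold changes of -1.74, -1.27, -2.14 and -2.16, with adjusted p between 0.000239 and 0.0124 (edgeR). Srebf2 was at 125 and 247 CPM in control and at 105, 127 and 137 CPM with WD+F+CCl4, groups that overlapped, and was not called (log2 fold change -0.45, adjusted p = 0.205, edgeR). Without control mouse 1 the calls of Cyp51, Fdft1 and Lss ended, with adjusted p from 0.078 to 0.564 (edgeR), and 4 of the 7 held.

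At a finer clustering the cDC-like cells fell into a cluster led by Cd209a and a cluster led by Xcr1 and Clec9a, with 4.536% and 34.88% of cells from control mice. In the Cd209a cluster, Hmgcs1 averaged 106 CPM in control (81.8 to 129), 33.3 with HFD+F+CCl4 (26.1 to 40.9) and 19.6 with WD+F+CCl4 (16.9 to 22.3). In the Xcr1 cluster the same gene averaged 94.0 CPM (85.3 to 103), 32.4 (23.4 to 37.2) and 26.1 (23.3 to 29.8). In both clusters each NASH mouse lay below both control mice, although the mix of the clusters differed between control and NASH mice.

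In pDC-like cells all 8 genes were called lower in WD+F+CCl4 than in control. Hmgcs1 stood at 233 and 173 CPM in control, at 134, 114 and 111 CPM with HFD+F+CCl4 and at 27.9, 62.8 and 31.5 CPM with WD+F+CCl4. Idi1 stood at 114 and 102 CPM in control, at 29.8, 44.3 and 57.8 CPM with HFD+F+CCl4 and at 11.1, 28.996 and 20.6 CPM with WD+F+CCl4. The 3 groups did not overlap in either gene. For Idi1 the NASH groups lay close, and the 29.8 CPM of HFD+F+CCl4 mouse 1 came from 20 cells, in which 3 UMIs would be 44.65 CPM. The log2 fold changes of WD+F+CCl4 against control were -2.31 for Hmgcs1 (SE 0.28, adjusted p = 6.92e-05, edgeR) and -2.43 for Idi1 (SE 0.30, adjusted p = 2.2e-05, edgeR).

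Lss and Cyp51 differed from these in pDC-like cells, where the HFD+F+CCl4 mice stayed near control. Lss was at 24.8 and 36.4 CPM in control, at 29.8, 22.7 and 27.7 CPM with HFD+F+CCl4 and at 4.38, 6.77 and 10.9 CPM with WD+F+CCl4. Cyp51 was at 98.8 and 75.1 CPM in control, at 44.6, 68.1 and 85.5 CPM with HFD+F+CCl4 and at 16.7, 43.5 and 26.9 CPM with WD+F+CCl4. In both genes the control and HFD+F+CCl4 mice overlapped, and the WD+F+CCl4 mice lay below all of them. For Cyp51 this rested on 43.5 CPM against the 44.6 CPM of HFD+F+CCl4 mouse 1, which is 3 UMIs in 20 cells. Against control the log2 fold changes with WD+F+CCl4 were -1.90 for Lss (SE 0.40, adjusted p = 0.00392, edgeR) and -1.62 for Cyp51 (SE 0.32, adjusted p = 0.00448, edgeR).

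Sqle and Fdft1 were at 0 in the 20 pDC-like cells of HFD+F+CCl4 mouse 1, where 3 UMIs, the limit that a count of 0 allows, would be 44.6 CPM, so this mouse does not show their absence. Sqle was otherwise at 79.4 and 68.3 CPM in control, at 53.0 and 51.8 CPM in HFD+F+CCl4 mice 2 and 3 and at 7.57, 17.4 and 16.02 CPM with WD+F+CCl4 (log2 fold change -2.44 against control, SE 0.37, adjusted p = 0.000433, edgeR). Fdft1 was lower by -2.003 (SE 0.37, adjusted p = 0.00123, edgeR) and Insig1 by -1.78 (SE 0.25, adjusted p = 7.51e-05, edgeR). Srebf2, the factor itself, was at 179 and 180 CPM in control, at 238, 155 and 210 CPM with HFD+F+CCl4 and at 99.1, 103 and 102 CPM with WD+F+CCl4. The WD+F+CCl4 mice lay below all other mice, and the log2 fold change of -0.72 against control (SE 0.20, adjusted p = 0.0229, edgeR) was the only call of Srebf2 among its 8 tests in this comparison. That call ended without WD+F+CCl4 mouse 1 (adjusted p = 0.0658) or control mouse 2 (0.0789), and without control mouse 1 those of Srebf2, Cyp51 and Fdft1 ended, with adjusted p from 0.125 to 0.174 (edgeR).

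**Figure D2:**
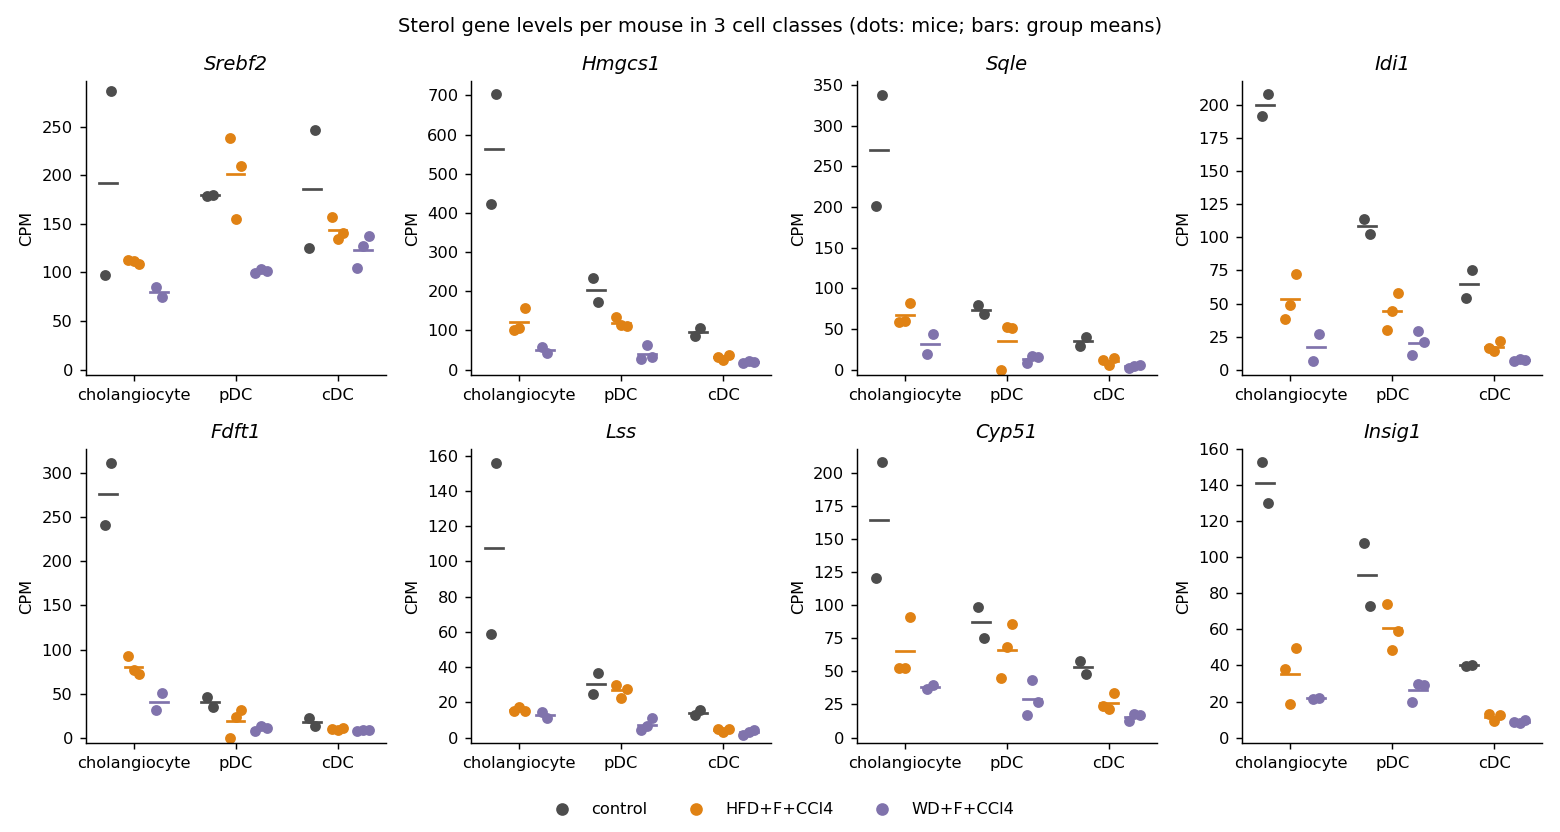
Level of each sterol gene in cholangiocyte-like, pDC-like and cDC-like cells (CPM on a linear axis), with 1 dot per mouse (grey control, orange HFD+F+CCl4, purple WD+F+CCl4) and a short line at each group mean. Outside Srebf2, control dots lie highest and WD+F+CCl4 dots lowest in most panels, and the dots at 0 for Sqle and Fdft1 are the 20 pDC-like cells of HFD+F+CCl4 mouse 1.

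Cholangiocyte-like cells had the largest median of the sterol genes against control, -2.55 on the log2 scale with WD+F+CCl4. Hmgcs1 stood at 423 and 702 CPM in control, at 101, 106 and 158 CPM with HFD+F+CCl4 and at 59.0 and 42.5 CPM in WD+F+CCl4 mice 2 and 3. Fdft1 stood at 241 and 312 CPM in control, at 92.2, 76.2 and 72.3 CPM with HFD+F+CCl4 and at 31.4 and 50.4 CPM with WD+F+CCl4. The groups did not overlap in either gene, and both were lower in WD+F+CCl4 than in control (Hmgcs1 log2 fold change -3.19, SE 0.35, adjusted p = 1.64e-05, and Fdft1 -2.49, SE 0.34, adjusted p = 0.00029, edgeR).

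Further along the pathway in cholangiocyte-like cells, Sqle was at 202 and 338 CPM in control, at 58.8, 60.2 and 81.8 CPM with HFD+F+CCl4 and at 18.7 and 44.2 CPM with WD+F+CCl4. Idi1 was at 192 and 208 CPM in control, at 38.0, 49.2 and 72.3 CPM with HFD+F+CCl4 and at 6.88 and 26.6 CPM with WD+F+CCl4. Neither gene's groups overlapped, and the log2 fold changes with WD+F+CCl4 against control were -2.71 for Sqle (SE 0.40, adjusted p = 0.000948, edgeR) and -3.29 for Idi1 (SE 0.53, adjusted p = 0.0096, edgeR). Lss, Cyp51 and Insig1 were called as well, at -2.48, -1.74 and -2.60. The class was small, with 44 and 27 control cells. Of the 7 calls, 1, that of Hmgcs1 (adjusted p = 0.0339), held without control mouse 1, where the others rose to adjusted p from 0.344 to 0.559, and 3 held without control mouse 2, where Cyp51, Idi1, Lss and Sqle rose to 0.0531 to 0.197 (edgeR). Summed over 9 hepatocyte markers, hepatocyte RNA in this class ran from 8525 to 12254 CPM in control, 5657 to 6792 CPM with HFD+F+CCl4 and 2663 to 7386 CPM with WD+F+CCl4. The share of the sterol levels that this RNA could bring is given with the Alb levels.

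In T/NK-like cells, Idi1 stood at 23.2 and 38.1 CPM in control, at 11.4, 11.95 and 9.97 CPM with HFD+F+CCl4 and at 6.84, 4.45 and 4.85 CPM with WD+F+CCl4. Hmgcs1 stood at 40.1 and 45.6 CPM in control, at 19.9, 20.5 and 20.9 CPM with HFD+F+CCl4 and at 14.9, 15.1 and 13.1 CPM with WD+F+CCl4. In both genes the groups did not overlap. The log2 fold changes with WD+F+CCl4 against control were -2.28 for Idi1 (SE 0.28, adjusted p = 0.00189, edgeR) and -1.40 for Hmgcs1 (SE 0.17, adjusted p = 0.00197, edgeR). Sqle, Cyp51 and Insig1 were called lower too, at -2.24, -1.44 and -1.77, and these 3 calls ended without control mouse 1, with adjusted p from 0.0662 to 0.129 (edgeR). Cyp51 also missed the threshold without control mouse 2 or WD+F+CCl4 mouse 1 or 2 (0.0555 to 0.0651). The class does not hold the same clusters in each group: 92.99% of the control cells lay in cluster 7, led by Il2rb and Cxcr6, while cluster 2, led by Ccl5 and Tox, held 99.1% of the cells with HFD+F+CCl4 and 99.5% with WD+F+CCl4. Within cluster 2 alone, an alternative added after the data were seen, Idi1 was lower by -2.85 (SE 0.31, adjusted p = 0.00112, edgeR) and Hmgcs1 by -1.84 (SE 0.24, adjusted p = 0.00177, edgeR) in WD+F+CCl4 than in control, where 5.56% of all genes were called lower. Insig1 was not called there (-1.19, SE 0.41, adjusted p = 0.0814, edgeR). At the finer clustering, T/NK-like cells led by Ccl5 and Cd8a held 1.217% control cells. Those whose leading genes included Mki67 and Top2a, markers of dividing cells, held 41.37%. The mix inside cluster 2 may therefore still differ between groups, and its part was not tested.

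In monocyte/macrophage-like cells, Cyp51 stood at 38.6 and 50.7 CPM in control, at 16.5, 12.1 and 30.8 CPM with HFD+F+CCl4 and at 5.37, 8.24 and 8.04 CPM with WD+F+CCl4. Idi1 stood at 22.03 and 46.5 CPM in control, at 11.8, 7.91 and 15.1 CPM with HFD+F+CCl4 and at 3.02, 4.66 and 4.56 CPM with WD+F+CCl4. Again the groups did not overlap, with the WD+F+CCl4 mice lowest. Against control, WD+F+CCl4 was lower in Idi1 by -2.76 (SE 0.40, adjusted p = 0.00625), in Cyp51 by -2.48 (SE 0.46, adjusted p = 0.0152), in Sqle by -2.69 (SE 0.64, adjusted p = 0.035) and in Hmgcs1 by -1.07 (SE 0.21, adjusted p = 0.0179, edgeR). Lss went the other way within its error (0.12, SE 0.58). None of these 4 calls held without control mouse 1, with adjusted p from 0.0697 to 0.398, and 1, that of Idi1, held without control mouse 2 (edgeR). Hmgcs1 and Sqle also ended without WD+F+CCl4 mouse 1 or 3, and Sqle without WD+F+CCl4 mouse 2, at adjusted p from 0.0521 to 0.0691. Here too the clusters differed between groups, with 87.72% of the control cells in cluster 3, led by Vcan and Chil3, against 7.885% of the cells with HFD+F+CCl4 and 29.2% with WD+F+CCl4. Within cluster 3 alone, the log2 fold changes with WD+F+CCl4 against control were -3.06 for Cyp51 (SE 0.39, adjusted p = 0.000696), -3.05 for Idi1 (SE 0.46, adjusted p = 0.0016) and -3.33 for Sqle (SE 0.60, adjusted p = 0.00383, edgeR), where 5.04% of all genes were called lower. At the finer clustering, the cluster led by Vcan held 0.3556% control cells. A cluster led by Cxcl11 and Cxcl10, whose best marker list was that of hepatocytes, held 98.54%. Control and NASH cells inside cluster 3 may therefore still differ in kind, and the part of this was not tested.

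B/plasma-like cells had 4 calls, for Idi1 (-2.51, SE 0.51), Sqle (-2.04, SE 0.64), Insig1 (-1.64, SE 0.36) and Hmgcs1 (-1.34, SE 0.29), with adjusted p between 0.00329 and 0.0448 (edgeR). The call of Sqle ended without any 1 of the 5 control and WD+F+CCl4 mice (adjusted p from 0.0845 to 0.184) and that of Insig1 without control mouse 1 (edgeR). Idi1 was at 17.4 and 46.0 CPM in control, at 3.96, 4.11 and 5.37 CPM with HFD+F+CCl4 and at 4.51, 6.41 and 1.53 CPM with WD+F+CCl4, so the 2 NASH groups overlapped and lay below control. At the finer clustering, a cluster led by Ebf1 and Ighd held 98.73% control cells and a cluster led by Jchain held 6.925%. In the Jchain cluster Idi1 ran from 39.5 to 75.4 CPM in control, from 4.0 to 5.5 CPM with HFD+F+CCl4 and from 1.7 to 4.7 CPM with WD+F+CCl4. Granulocyte-like cells had their call in Insig1, at 26.04 and 29.8 CPM in control and at 5.97, 6.32 and 9.84 CPM with WD+F+CCl4 (-1.87, SE 0.52, adjusted p = 0.0471, edgeR), a call that ended without either control mouse, WD+F+CCl4 mouse 1 or 2 or HFD+F+CCl4 mouse 2 (adjusted p from 0.0524 to 0.696). The 29.8 CPM of control mouse 2 came from 22 cells, in which 3 UMIs would be 89.48 CPM. Endothelial-like cells entered from WD+F+CCl4 mice 2 and 3 only. The 5 tested genes were lower in both of these mice than in both control mice, against 19.4% of all genes in that class. They were not called, with adjusted p from 0.38 to 0.548 (edgeR). WD+F+CCl4 mouse 2 gave 21 such cells. Its Cyp51 count of 0 allows up to 28.35 CPM, above both control mice (16.2 and 27.9 CPM).

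**Figure D3:**
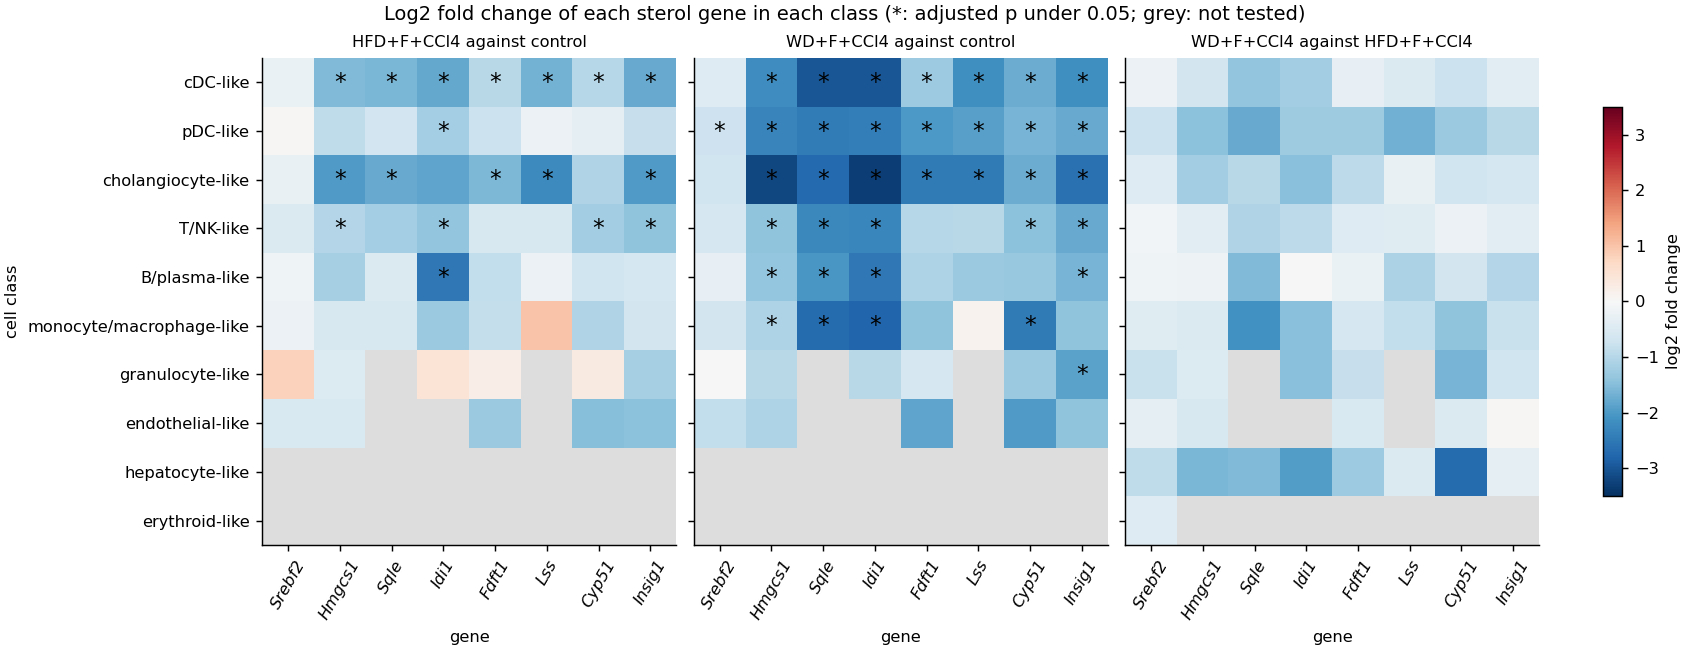
Color map of the log2 fold change of each sterol gene (columns) in each class (lines) for the 3 comparisons, blue where the first group is lower, with an asterisk where edgeR's adjusted p is under 0.05 and grey where no test was made. There are 18 asterisks with HFD+F+CCl4 against control, 36 with WD+F+CCl4 against control and 0 between the diets, where 67 of 68 values lie below 0.

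The comparison of HFD+F+CCl4 with control used the same 2 control mice, so the 2 comparisons are not independent and their values are only set side by side. Of 59 tests, 18 were called, all lower, against 2.54% of all genes called lower over all classes (edgeR). The fold change was negative in 53 of 59, with a median of -0.86 beside 0.04 over all genes, and 38 of 59 were lower in each HFD+F+CCl4 mouse than in both control mice, against 19.1% of all genes. This count rested on single mice, since it fell to 4 without control mouse 1, 5 without control mouse 2, 10 without HFD+F+CCl4 mouse 1 and 6 without HFD+F+CCl4 mouse 2, with all calls lower in each case.

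The 18 calls fell in cDC-like (7), cholangiocyte-like (5), T/NK-like (4), pDC-like (1) and B/plasma-like cells (1), where 5.43%, 0.427%, 2.73%, 2.59% and 2.8% of all genes were called lower. In cDC-like cells, whose values stand above, Insig1 was lower by -1.76 (SE 0.22, adjusted p = 0.000638), Idi1 by -1.79 (SE 0.23, adjusted p = 0.00076) and Hmgcs1 by -1.54 (SE 0.20, adjusted p = 0.000881, edgeR). In cholangiocyte-like cells Hmgcs1 was lower by -1.98 (SE 0.30, adjusted p = 0.00104), Insig1 by -1.99 (SE 0.40, adjusted p = 0.0139) and Lss by -2.24 (SE 0.49, adjusted p = 0.0269, edgeR), and all 5 calls of the class ended without control mouse 1 (adjusted p from 0.312 to 0.65) and without control mouse 2 (0.0548 to 0.294). In T/NK-like cells Hmgcs1 was lower by -1.02 (SE 0.17, adjusted p = 0.0103, edgeR), and Idi1, Insig1 and Cyp51 by -1.37, -1.40 and -1.23. The call in pDC-like cells was Idi1 (-1.18, SE 0.31, adjusted p = 0.0397, edgeR), and that in B/plasma-like cells was Idi1 too (-2.49, SE 0.64, adjusted p = 0.0261, edgeR). The first ended without any 1 of the 5 control and HFD+F+CCl4 mice (0.0851 to 0.286), and the second without control mouse 2 or HFD+F+CCl4 mouse 1 or 2 (0.0819 to 0.138). In cDC-like cells Insig1, Idi1 and Hmgcs1 held without each mouse in turn, and the other 4 calls each ended without at least 1 mouse. In T/NK-like cells no call held without control mouse 1 (0.0564 to 0.221), and that of Hmgcs1 held without each other mouse.

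The 2 diets were then compared with each other, in the same fit, where the control mice enter the filter, the scaling and the estimate of spread. No test passed (0 of 68, edgeR), where 0.0399% of all genes were called lower over all classes, so few genes of any kind were told apart between the NASH groups. At an unadjusted p under 0.05 there were 35 of 68, against 5773 of 105315 over all genes and classes. DESeq2 called 6 of 68, all lower, and edgeR without a filter on low counts called 15 of 80, all lower. Without WD+F+CCl4 mouse 3 edgeR called 8 of 67, and without WD+F+CCl4 mouse 2 it called 3 of 70. The share of all genes called was not counted with DESeq2, without the filter or with a mouse left out. The direction was nearly uniform: 67 of 68 fold changes were negative, with a median of -0.76 beside -0.0015 over all genes, and in 41 of 68 each WD+F+CCl4 mouse lay below each HFD+F+CCl4 mouse, against 8.35% of all genes.

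The smallest adjusted p between the diets was that of Idi1 in hepatocyte-like cells, the class in which the liver makes most of its cholesterol. Idi1 stood at 135, 92.9 and 129 CPM with HFD+F+CCl4 and at 37.5, 28.2 and 18.4 CPM with WD+F+CCl4, with 75.05 CPM in control mouse 1. The NASH groups did not overlap, and the log2 fold change was -1.96 (SE 0.33, adjusted p = 0.0586, edgeR). Hmgcs1 stood at 93.3, 167 and 457 CPM with HFD+F+CCl4 and at 94.7, 50.4 and 85.2 CPM with WD+F+CCl4, so it overlapped. Cyp51 stood at 20.7, 43.1 and 71.4 CPM with HFD+F+CCl4 and at 4.45, 0 and 18.4 CPM with WD+F+CCl4, where the 0 of mouse 2 allows up to 6.05 CPM. Its groups did not overlap, and its log2 fold change of -2.70 (SE 0.81, adjusted p = 0.605, edgeR) did not pass. The summed hepatocyte markers of this class ran from 28563 to 38735 CPM with HFD+F+CCl4 and were 6889, 11220 and 44072 CPM in the WD+F+CCl4 mice, so 2 of these 3 mice gave hepatocyte-like cells with less marker RNA. WD+F+CCl4 mouse 3, with the highest marker sum, had the lowest Idi1 and the highest Cyp51 level of its group, and the part of the marker RNA in the sterol values was not tested.

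In the other classes the step between diets was largest in pDC-like cells, with a median of -1.28 over the 8 genes. Hmgcs1 was lower by -1.42 (SE 0.29, adjusted p = 0.14), Sqle by -1.77 (SE 0.38, adjusted p = 0.144) and Lss by -1.69 (SE 0.41, adjusted p = 0.187, edgeR) in WD+F+CCl4. In monocyte/macrophage-like cells all 8 genes were lower in each WD+F+CCl4 mouse than in each HFD+F+CCl4 mouse, against 7.94% of all genes in that class. Sqle there was at 7.17, 3.30 and 11.05 CPM with HFD+F+CCl4 and at 0.948, 1.97 and 1.85 CPM with WD+F+CCl4. Its log2 fold change was -2.13 (SE 0.46, adjusted p = 0.604, edgeR). Within cluster 3 of this class, the alternative added after the data were seen, Cyp51 was called lower by -2.46 (SE 0.30, adjusted p = 0.0315, edgeR). It was the 1 gene called lower there of all 11633 tested (0.0086%). None of the 8 genes was called in clusters 0 and 1, where Cyp51 was at -1.38 (adjusted p = 0.78) and -1.12 (adjusted p = 0.9998, edgeR). Those clusters held 50.33% and 41.79% of the class with HFD+F+CCl4 and 44.95% and 25.85% with WD+F+CCl4. Outside pDC-like cells the class medians ran from -0.40 in T/NK-like to -0.82 in monocyte/macrophage-like cells, apart from hepatocyte-like cells at -1.40.

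Whether the effect of diet differed between classes was tested as an interaction with the mouse as a block, in the 6 NASH mice. Between hepatocyte-like and monocyte/macrophage-like cells no sterol gene was called (0 of 8, with 2 at an unadjusted p under 0.05). Of all 14956 genes, 42 were called and 937 had an unadjusted p under 0.05 (edgeR). Without HFD+F+CCl4 mouse 1, 1 of the 8 was called, beside 57 of all 15098 genes. Between T/NK-like and monocyte/macrophage-like cells 0 of all 16254 genes were called, and 711 had an unadjusted p under 0.05 (edgeR). Of the 8 genes 0 were called, with 1 at an unadjusted p under 0.05. That gene was Cyp51, whose diet effect was smaller in T/NK-like cells by 1.26 on the log2 scale (SE 0.22, adjusted p = 0.323, edgeR). A difference between these classes in the response of the 8 genes to diet was not detectable here.

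The 8 genes varied among themselves. With WD+F+CCl4 against control, the median log2 fold change over the classes tested was -2.56 for Sqle, -2.51 for Idi1, -1.77 for Insig1, -1.68 for Cyp51, -1.60 for Lss, -1.37 for Hmgcs1, -1.34 for Fdft1 and -0.62 for Srebf2. The classes tested differ between genes, from 6 for Sqle and Lss to 8, so close medians give no order. Sqle was called in 6 of 6 classes, Idi1 in 6 of 7, Hmgcs1 and Insig1 in 6 of 8 each, Cyp51 in 5 of 8, Lss in 3 of 6 and Fdft1 in 3 of 8. Between the diets the medians were -1.53 for Sqle, -1.35 for Idi1 and -0.43 for Srebf2. Srebf2, the regulator, had the smallest medians in all 3 comparisons, at -0.23 with HFD+F+CCl4 against control. Over the 78 class-by-mouse sums, Srebf2 also had the lowest correlation with the mean of the other 7 genes (Pearson's r = 0.542), against 0.722 to 0.860 for the rest; these points share mice, libraries and depth, so this is a description.

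The other genes of the pathway were listed from general knowledge: 24 genes for further enzymes, sterol uptake and transport, and the handling of SREBP. They had 52 of 171 tests called with WD+F+CCl4 against control, 18 of 171 with HFD+F+CCl4 against control and 1 of 196 between the diets, all lower (edgeR). The shares of all genes called lower were those given for the 8 genes, 3.8%, 2.54% and 0.0399%. Without control mouse 1 the first 2 counts fell to 17 and 3 of 177, and without HFD+F+CCl4 mouse 2 the second fell to 6 of 166. Among the genes called most often over the 3 comparisons were Sc5d (11 of 25 tests), Fdps (10 of 25), Msmo1 (7 of 25) and Stard4 (5 of 25). Between the diets the list had 11 of 203 calls without WD+F+CCl4 mouse 3 and 4 of 205 without WD+F+CCl4 mouse 2.

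Fdps, which makes farnesyl diphosphate just before Fdft1 acts, was at 182 and 161 CPM in the pDC-like cells of control mice, at 44.6, 45.4 and 84.3 CPM with HFD+F+CCl4 and at 15.9, 23.2 and 29.2 CPM with WD+F+CCl4. The groups did not overlap, though the 44.6 CPM of HFD+F+CCl4 mouse 1 is 3 UMIs in 20 cells. With WD+F+CCl4 against control the log2 fold change of Fdps was -2.86 (SE 0.27, adjusted p = 6.77e-07, edgeR).

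Msmo1 and Sc5d, which both act between lanosterol and cholesterol, had medians of -1.40 and -1.51 over 8 classes with WD+F+CCl4 against control. Stard4, a sterol carrier, had a median of -1.33 and was called in 4 of 8 classes. Srebf1, the paralog that drives fatty acid synthesis, had 2 calls of 25. For the genes that handle SREBP the smallest adjusted p over their tests was 0.0796 for Insig2, 0.121 for Scap, 0.129 for Mbtps1 and 0.509 for Mbtps2 (edgeR).

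RNA of hepatocytes was found in the 8 classes compared with control, and Alb was higher there in each control mouse than in each WD+F+CCl4 mouse. In cDC-like cells, Alb (albumin, the main product of hepatocytes) was at 1073 and 478 CPM in control, at 217, 254 and 38.2 CPM with HFD+F+CCl4 and at 11.1, 11.2 and 51.0 CPM with WD+F+CCl4, and the 9 hepatocyte markers together ran from 1014 to 1946, from 63.3 to 395 and from 23.01 to 92.7 CPM. These levels moved in the same order of groups as the sterol genes. In control mouse 1 the Alb level was 2.03% of that of its hepatocyte-like cells, and hepatocyte RNA at that share would bring 3.33% of the Hmgcs1 level and 12.3% of the Insig1 level of its cDC-like cells. In its pDC-like cells the same shares were 1.02% and 3.77%, and in its cholangiocyte-like cells 3.74% and 17.7%. They were larger where a gene was low, at 21.1% for Insig1 in T/NK-like cells, 50.05% for Sqle in endothelial-like cells and 109% for Idi1 in granulocyte-like cells. The shares of Sqle and Idi1 there rested on few UMIs. Both control mice together gave 4 Sqle UMIs in endothelial-like and 2 Idi1 UMIs in granulocyte-like cells. The hepatocyte-like cells of control mouse 1 gave 3 Sqle and 9 Idi1 UMIs. In HFD+F+CCl4 mouse 3 the Alb level in cDC-like cells lay within the range of the WD+F+CCl4 mice, while its Hmgcs1, Idi1, Sqle and Cyp51 levels, 37.6, 21.3, 14.1 and 33.7 CPM, were the highest of the HFD+F+CCl4 mice. Other classes of this mouse were mixed. In T/NK-like cells its Idi1 level (9.97 CPM) was the lowest of its group and its Hmgcs1 level (20.9 CPM) the highest. In endothelial-like cells its Alb (99.2 CPM), Idi1 and Fdft1 (4.31 CPM each) were the lowest. Its Insig1 (25.9 CPM), Cyp51 (8.63 CPM) and Srebf2 (64.7 CPM) were the highest there, in 35 cells where 3 UMIs would be 12.94 CPM. In monocyte/macrophage-like cells its Sqle, Idi1 and Cyp51 levels (11.05, 15.1 and 30.8 CPM) were the highest of its group. The part of hepatocyte RNA in the comparisons was not tested further.

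**Figure D4:**
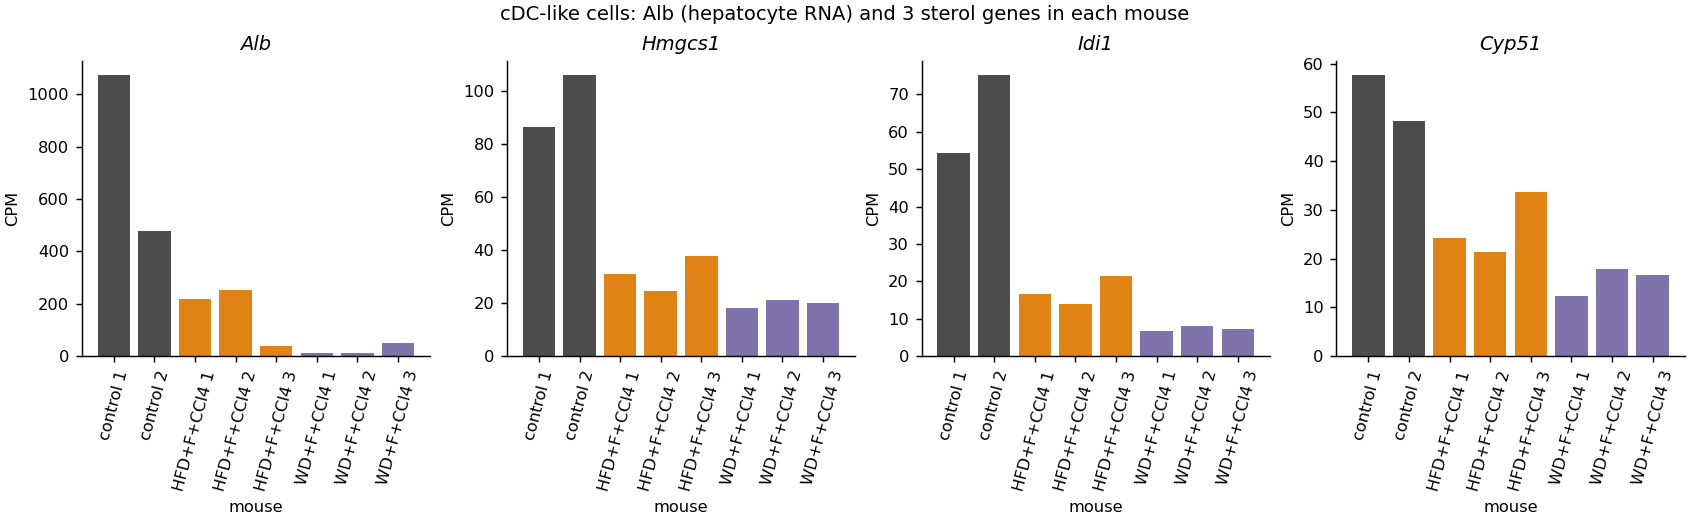
Bars give the level (CPM, axis from 0) of Alb, Hmgcs1, Idi1 and Cyp51 in the cDC-like cells of each of the 8 mice. HFD+F+CCl4 mouse 3 has an Alb level of 38.2 CPM, within the 11.1 to 51.0 CPM of the WD+F+CCl4 mice, and the highest Hmgcs1, Idi1 and Cyp51 levels of its own group.

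Markers of dividing cells differed between groups too, in directions that depended on the class. In cDC-like cells, 6 cycling markers summed to 475 and 517 CPM in control, to 859 to 1396 CPM with HFD+F+CCl4 and to 649 to 1072 CPM with WD+F+CCl4. In B/plasma-like cells they summed to 164 and 460 CPM in control and to 96.4 to 157 CPM with WD+F+CCl4, and in pDC-like cells to 107 and 162 CPM and to 37.7 to 136 CPM, so they were higher with WD+F+CCl4 in the first class, lower in the second and overlapping in the third. The part of dividing cells, of cell depth and of the shallow control library in the comparisons with control was not tested beyond the alternatives. With more than 1000 genes per barcode, 25 of 34 tests were called lower with WD+F+CCl4 and 11 of 34 with HFD+F+CCl4, in the 5 classes that still had 2 control mice.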

How the data were processed

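The authors deposited UMI counts, whole numbers per gene and barcode, in 1 matrix for 8 libraries, made with bcl2fastq 2.20 and Cell Ranger and aligned to GRCm38; the Cell Ranger version in the file differs from that in the methods. CPM values were computed here from these deposited counts, summed per mouse and class. For clustering, each cell was set to a total of 10000 UMIs and the log taken; Leiden communities were found on a graph of 20 neighbours in 30 principal components of 2000 variable genes, the sterol and pathway genes left out (scanpy 1.11.5, leidenalg 0.10.2, igraph 0.11.9; resolution 0.42, with 17 clusters, and 0.8, with 31). Cluster numbers start at 0. Doublets were kept, and removing the 7452 cells with the highest Scrublet scores (0.8% per 1000 barcodes) was an alternative. Mice are separate animals, and groups come from the labels.

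Summed counts were tested with edgeR 4.0.16 (quasi-likelihood, TMM, filterByExpr with a minimum count of 10, 3 groups in 1 fit; R 4.3.3, limma 3.58.1), with DESeq2 1.42.0 as an alternative. Tested on simulated data, with a log2 change of 2 given to 200 genes, edgeR recovered 78.5% in cDC-like cells (12164 genes) with WD+F+CCl4 against control, with 6 false calls, and 96% between the diets (12177 genes), with 5. In pDC-like cells it recovered 87.5% (9503 genes) and 89% (9512 genes). The 200 genes were drawn at random, and smaller changes, such as the median of -0.76 of the sterol genes between the diets, were not simulated. The sterol genes, the pathway list and the markers were chosen with earlier results of these data known. Named pathway genes are from the 6 with the most calls, ties by smallest adjusted p (some genes of the list are not reported here by name), and genes named for likeness are the 10 outside both lists with the highest correlation among those with a mean of at least 10 CPM; Srebf1, Insig2, Scap, Mbtps1, Mbtps2 and cluster-leading genes were named after their values were seen. A count of 0 was taken to allow 3 UMIs, which covers counting error only.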

Additional observations from a re-analysis of the deposited data

Results flagged for a closer look

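Cyp51 with HFD+F+CCl4 against control went opposite ways in different classes. In granulocyte-like cells each HFD+F+CCl4 mouse, at 11.4, 12.5 and 12.8 CPM, lay above both control mice, at 10.8 and 0 CPM, with a log2 fold change of 0.3191 (SE 0.63, adjusted p = 0.867, edgeR), while in 5 other classes each HFD+F+CCl4 mouse lay below both control mice. Control mouse 2 gave 22 granulocyte-like cells, in which a count of 0 allows up to 89.5 CPM, and the difference between classes was not tested.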

How the results depend on the processing

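No gene-by-class call changed direction under the alternatives run, but some values that were not called changed sign. With WD+F+CCl4 against control, 57 of 59 fold changes were negative in the main fit and 58 of 59 with total UMIs only. Between the diets 67 of 68 were negative in the main fit and 64 of 68 without HFD+F+CCl4 mouse 3. Of the gene-by-class calls, 625 of 690 repeats with WD+F+CCl4 against control stayed past the threshold and 65 did not, and 271 of 346 with HFD+F+CCl4 against control did and 75 did not. Leaving out each mouse in turn gave 15 to 38 calls of the 8 genes with WD+F+CCl4 against control, 4 to 18 with HFD+F+CCl4 against control and 0 to 8 between the diets, and for the pathway list 17 to 54, 3 to 23 and 0 to 11; a lone control mouse was assumed to vary like the other groups. The test of a class difference in the diet effect gave 0 to 1 call for hepatocyte-like cells. HFD+F+CCl4 against control had 11 calls with more than 1000 genes per barcode and 12 with at least 50 cells per mouse and class. In both settings 5 classes could be tested. Between the diets, the 8 genes had 6 calls with DESeq2, 15 with no filter and 1 with clusters fitted one by one (added after the data were seen), and the pathway list had 2 with total UMIs only, 4 with DESeq2, 9 with no filter, and 0 both with more than 1000 genes and without the highest doublet scores; the cause was not tested. Mice with the same replicate number did not deviate together (median correlations of -0.049 in cDC-like, -0.016 in monocyte/macrophage-like and -0.057 in T/NK-like cells), so the numbers do not pair the mice; with the replicate block the calls were 33, 16 and 3 for the 8 genes, and 2 between the diets for the pathway list. All other counts moved by less than 1.5 times, and depth limits the low genes most: Lss and Sqle had the fewest UMIs and failed the filter most often.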

Other observations

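A cluster of 3613 cells, of which 3612 came from control mice, took no name, since its leading genes Mug1, Mup3 and Cyp3a11 are hepatocyte genes while its best marker list was that of B cells. In it, Hmgcs1 was at 70.8 CPM (67.8 to 73.7 in the 2 control mice), Cyp51 at 43.5 CPM, Insig1 at 45.9 CPM and Srebf2 at 88.8 CPM. Alb was at 5260 CPM there.

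Some small classes allowed no comparison with control. In Kupffer-like cells, the resident macrophages of the liver, Hmgcs1 was at 38.0 and 41.4 CPM in HFD+F+CCl4 mice 1 and 2 and at 27.1 CPM in WD+F+CCl4 mouse 3, the mice with at least 20 such cells. Insig1 was at 33.0, 19.7 and 16.9 CPM in the same mice, and Sqle at 2.87, 2.07 and 1.04 CPM. In stellate-like cells of HFD+F+CCl4 mice 1 and 2, Hmgcs1 was at 21.4 and 59.0 CPM. In erythroid-like cells Srebf2, the gene that passed the filter there, was at 41.9 and 55.2 CPM in HFD+F+CCl4 mice 2 and 3 and at 49.3 and 36.9 CPM in WD+F+CCl4 mice 2 and 3.

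Over 78 class-by-mouse sums and 9813 genes, the genes outside the pathway whose log2 levels were most like the mean of the 8 sterol genes were Chdh (Pearson's r = 0.798), Ptprf (0.783), Atp1b1 (0.745), Cdh1 (0.737), Slc2a2 (0.706), Erbb3 (0.700), Slc39a14 (0.696), Pank1 (0.696), Pigr (0.686) and Upb1 (0.685). Of the pathway list, Fdps (0.873) and Msmo1 (0.831) ranked 3 and 7 among all genes. The sums share mice, libraries and depth, so the values describe likeness only.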
